A study of Mus musculus with 8 samples.

Results

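The 1370 sites described here are DNase I hypersensitive sites of mouse 3134 mammary epithelial cells. Each was listed in 7 of 8 libraries and missing from 1 library, that of cells in which dominant-negative Snf2h had been induced by tetracycline removal. To find them, the hotspots of all 8 deposited lists were merged into 99999 sites wherever they overlapped by 1 bp or more. A hotspot is a region enriched in DNase I cuts. The 1370 sites listed everywhere but in the DNSnf2h list without tetracycline are called the members, and 12592 further sites were listed in all 8 libraries. The members were therefore chosen by the readout itself: their absence from that list is the rule and not a finding.

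Snf2h is the ATPase of the ISWI remodeling complexes, which slide nucleosomes along DNA and space them evenly. Brg1 drives the SWI/SNF complexes, which slide and evict nucleosomes at enhancers and promoters, and Chd4 is the ATPase of the NuRD complex, which also carries histone deacetylases. A catalytically impaired copy of such an ATPase can take the place of the endogenous protein in its complexes. DNase I cuts preferentially where nucleosomes are displaced, so the density of cuts is a measure of chromatin accessibility.

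Each of 4 lines was measured without and with tetracycline in 1 library per state. Differences between libraries therefore have no replicates behind them, and p-values are not given. DNSnf2h cells carry human SNF2H with an N-terminal FLAG tag and lysine 211 changed to arginine, in a retroviral vector repressed by tetracycline. DNCHD4 cells carry mouse Chd4 with a triple FLAG tag and lysine 250 changed to cysteine. Both constructs were integrated stably into a 3134 line that holds the tetracycline transactivator. DNBrg1 cells carry dominant-negative Brg1, whose construct is not described in the sources used here. The fourth line is labelled 3134 alone and is called parental, and the labels do not say whether it holds the transactivator, nor whether any line is a single clone. The lines with a dominant-negative protein were kept in 5 µg/ml tetracycline, and all cells were plated in charcoal-stripped serum without or with tetracycline for 48 hours before nuclei were digested.

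The lists differed in length and in depth. They held 24890 to 78093 hotspots, and their lowest peak densities ran from 5.09 to 16.4. The DNSnf2h lists held 33793 hotspots without and 24890 with tetracycline, and began at 8.06 and 8.03. Peak densities were whole multiples of 1 tag, so that the lowest hotspot of a list held 26 to 45 tags at its peak. Densities in both DNSnf2h libraries were low. With tetracycline, densities at the members were lower than in the DNBrg1, DNCHD4 and parental lines. The median log2 ratios were -1.59, -1.63 and -1.49. The sites listed in all 8 had larger gaps of -1.83, -2.01 and -1.92, so the low level was not particular to the members. Nor was it particular to 1 tetracycline state. The median density of the sites listed in all 8 was 21.6 without and 21.8 with tetracycline in DNSnf2h cells. In the libraries of the other lines it was 46.7 to 91.2. A site that is missing from a list lies under that list's threshold or was removed by a later filter, and is not a site without cuts.

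The members ranked low in the DNSnf2h list with tetracycline, in the middle of the DNBrg1 and parental lists, and higher in the DNCHD4 lists. Their median density stood at percentile 32.6 of the DNSnf2h list, at 46.6 to 51.7 of the DNBrg1 and parental lists, and at 76.0 without and 66.0 with tetracycline in DNCHD4. In DNSnf2h cells with tetracycline their peak density ran from 8.03 to 39.6, with a median of 11.4. That median was 1.42 times the lowest density of the list, and 786 members (57.4%) lay under 1.5 times it. In the DNBrg1 line the median density of the members was 20.2 without and 35.7 with tetracycline, in the DNCHD4 line 32.7 and 37.2, and in the parental line 23.2 and 34.1. These medians were 2.19 and 2.18 times the lowest density of the DNBrg1 lists, 6.42 and 4.62 times that of the DNCHD4 lists, and 2.31 and 2.62 times that of the parental lists. The sites listed in all 8 libraries had a median density of 21.8 in DNSnf2h cells with tetracycline, and the members stood at 52.1% of that. In the 6 libraries of the other lines the members stood at 35.0% to 45.9% of the median of the sites listed in all 8. The members were thus weaker than the sites listed in all 8 in each of the 7 libraries.

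**Figure D1:**
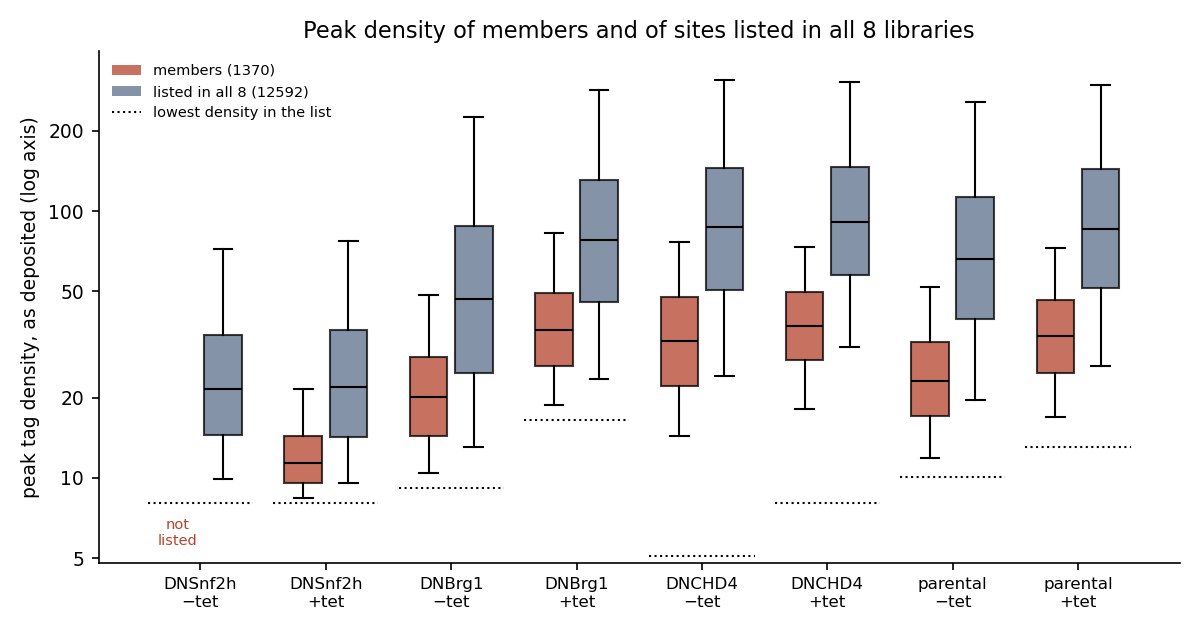
Peak tag density as deposited (log axis) in the 8 libraries, for the members (red) and the sites listed in all 8 (blue). Boxes span the quartiles with the median as a line, whiskers span the 5th to the 95th percentile, and dotted lines mark the lowest density of each list. The members lie lowest against the threshold in DNSnf2h cells with tetracycline, at a median of 11.4.

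Absence from the DNSnf2h list without tetracycline went with a low density in the list with it. Of the 13962 sites listed in the other 7 libraries, the members were 9.81% (95% Wilson interval 9.33 to 10.3). Their share was 32.3% (29.9 to 34.9) among sites up to 25% above the lowest density in DNSnf2h cells with tetracycline, 15.5% (14.03 to 17.0) at 1.5 to 2 times, 6.13% (5.34 to 7.02) at 2 to 3 times and 0.212% (0.107 to 0.417) from 4 times on. These and all other intervals reflect counting error alone, and PCR copies were not told apart by molecular identifiers. Over all sites listed in DNSnf2h cells with tetracycline, 32.2% were missing from the list without it.

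The converse absence was more frequent. Sites listed everywhere but in DNSnf2h cells with tetracycline numbered 2043, or 13.96% (13.4 to 14.5) of 14635. They too went with low density, and made up 48.8% (46.0 to 51.6) of the sites up to 25% above the lowest density without tetracycline. At 3 to 4 times the lowest density the order was the other way: 1.81% (1.30 to 2.52) of sites were missing without tetracycline and 0.620% (0.355 to 1.08) with it. For the other lines, sites missing from 1 library alone numbered 1208 without and 488 with tetracycline in DNBrg1 cells, 3 and 1 in DNCHD4 cells, and 60 and 29 in parental cells. The libraries of the DNSnf2h and DNBrg1 lines thus held nearly all such single absences.

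**Figure D2:**
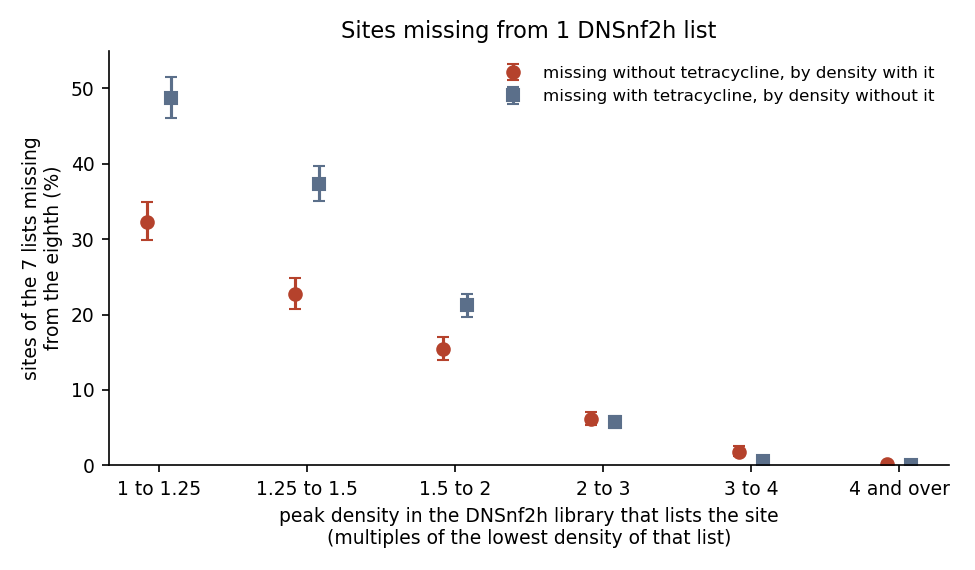
Share of the sites listed in 7 libraries that were missing from the eighth (vertical axis, %), by peak density in the other DNSnf2h library in multiples of its lowest density. Red circles are sites missing without tetracycline and blue squares sites missing with it, with 95% Wilson intervals. Both shares drop with density, from 32.3% and 48.8% in the lowest class to 0.212% and 0.0574% in the highest.

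By peak density, the DNSnf2h lists place most members within 2-fold of the threshold without tetracycline. The density with tetracycline, divided by the lowest density listed without it, was 1.41 at the median and 4.91 at most. With mean in place of peak density the median quotient was 14.1, so its size depends on the density used. That quotient divides by the lowest mean density of the list, which is not known to be a threshold. The quotient of peak densities is called the bound. It says how far a member had to be lower to lie under the threshold, if the other list would have held any higher density. It was 2 or more at 232 members (16.9%) and 4 or more at 8. Sites 2-fold lower in this line, bounds included, made up 4.68% of all sites listed in either DNSnf2h library. The rule used this contrast, so nothing is read from the 2 shares. The density of 35 members with tetracycline was itself under 8.06, and at 822 (60.0%) the lower 95% limit of the tag count lay above that density.

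Just inside the rule, a member on chromosome 1 from 177810299 to 177811277 (build mm9, as all coordinates) had the lowest density of the list, 8.03, in DNSnf2h cells with tetracycline. It was listed at 28.8 without and 42.8 with tetracycline in DNBrg1 cells, 48.4 and 37.0 in DNCHD4 cells, and 18.8 and 38.4 in parental cells. Just outside it lies a site on chromosome 2 between 70662271 and 70664357, with 8.06 without and 10.5 with tetracycline in DNSnf2h cells. The same site had 23.0 and 43.9 in DNBrg1 cells, 49.7 and 37.6 in DNCHD4 cells, and 28.3 and 50.2 in parental cells. By fold, tetracycline-free parental cells differed most between the 2 sites, with the site outside the rule higher. In density units, parental cells with tetracycline differed most, in the same direction.

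The DNSnf2h list without tetracycline was not empty around the members. Its nearest hotspot lay at a median distance of 10534 bp, and 74 members (5.40%) had one within 500 bp. At 1223 members it listed at least 1 hotspot within 50 kb. The density of the member with tetracycline exceeded the lowest of these neighbours at 758 of the 1223 members, and was at least 2 times it at 83. These values were not computed for other sites, so they are not read as particular to the members. Hotspots are numbered in genome order. At 267 members (19.5%, 17.5 to 21.7) a number was missing between the flanking hotspots of that list, against 14.3% of all its intervals. The latter share counts each interval once, whatever its length, so the shares are unlike measures and no excess is read from them. What was removed at those numbers is not given in the sources.

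The 10 members with the highest density in DNSnf2h cells with tetracycline had bounds of 3.94 to 4.91. The first lies on chromosome 17 from 17982055 to 17983081. It was listed at 39.6 in DNSnf2h cells with tetracycline, at 34.4 without and 25.8 with it in DNBrg1 cells, at 17.0 and 52.1 in DNCHD4 cells, and at 16.0 and 34.7 in parental cells. Density without tetracycline was thus lower in DNCHD4 and parental cells, and higher in DNBrg1 cells. The difference was 3.06-fold in DNCHD4 (exact 95% binomial interval on tags 2.40 to 3.93) and 2.17-fold in parental cells (1.58 to 3.02), while the interval of the DNBrg1 ratio, 0.944 to 1.92, included 1. Within 50 kb the DNSnf2h list without tetracycline held 4 hotspots, the lowest at 13.9, against which the bound would be smaller.

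On chromosome 9 from 52337031 to 52338514 density was lower without tetracycline in the DNBrg1, DNCHD4 and parental lines. The member had 32.7 in DNSnf2h cells with tetracycline, 9.18 without and 48.0 with it in DNBrg1 cells, 17.2 and 86.8 in DNCHD4 cells, and 19.3 and 74.7 in parental cells. It was 5.23-fold lower in DNBrg1 (3.49 to 7.97), 5.03-fold in DNCHD4 (4.00 to 6.39) and 3.87-fold in parental cells (2.97 to 5.08). Its value in DNBrg1 cells without tetracycline was the lowest of that list, so it nearly missed the rule there too. In the DNSnf2h list without tetracycline 1 hotspot number is missing between the hotspots that flank the member, the nearest 20936 bp away. That number cannot be placed at the member itself. This member also had the greatest difference common to the other 3 lines.

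On chromosome 17 from 84732076 to 84732830 the DNCHD4 line differed most. The member had 31.7 in DNSnf2h cells with tetracycline, 24.2 without and 52.7 with it in DNBrg1 cells, 11.2 and 59.4 in DNCHD4 cells, and 14.4 and 37.2 in parental cells. That is 5.32-fold lower in DNCHD4 (4.01 to 7.18), beside 2.18-fold in DNBrg1 (1.61 to 2.93) and 2.58-fold in parental cells (1.86 to 3.61). On chromosome 5 from 91118284 to 91119584 the values were 37.3 in DNSnf2h cells with tetracycline, 17.1 and 37.5 in DNBrg1 cells, 27.8 and 100.01 in DNCHD4 cells, and 26.3 and 69.1 in parental cells. Here DNCHD4 was 3.60-fold lower (2.99 to 4.35), DNBrg1 2.19-fold (1.53 to 3.14) and parental cells 2.63-fold (2.07 to 3.36). In both, each pair as deposited lay apart by more than its counting error. These folds include the shift over all sites of a line, which was a median log2 ratio of -0.64 in DNBrg1. With that median set to 0, the DNBrg1 log2 ratios were -0.48 on chromosome 17 and -0.49 on chromosome 5.

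A single member of these 10 had no lower density in DNCHD4. On chromosome 4 from 108808900 to 108809849 it was listed at 34.9 in DNSnf2h cells with tetracycline, 27.3 without and 17.6 with it in DNBrg1 cells, 40.5 and 33.8 in DNCHD4 cells, and 13.4 and 16.7 in parental cells. The DNCHD4 ratio was 1.199 (0.980 to 1.47). Of the other 5 members of the group, on chromosomes 1, 2, 10 (2 members) and 13, all had a lower density without tetracycline in DNBrg1, DNCHD4 and parental cells as deposited. After centring, the DNBrg1 ratio was above 1 at 2 of those 5, on chromosomes 2 and 10. Ratios of single sites are given as deposited.

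**Figure D3:**
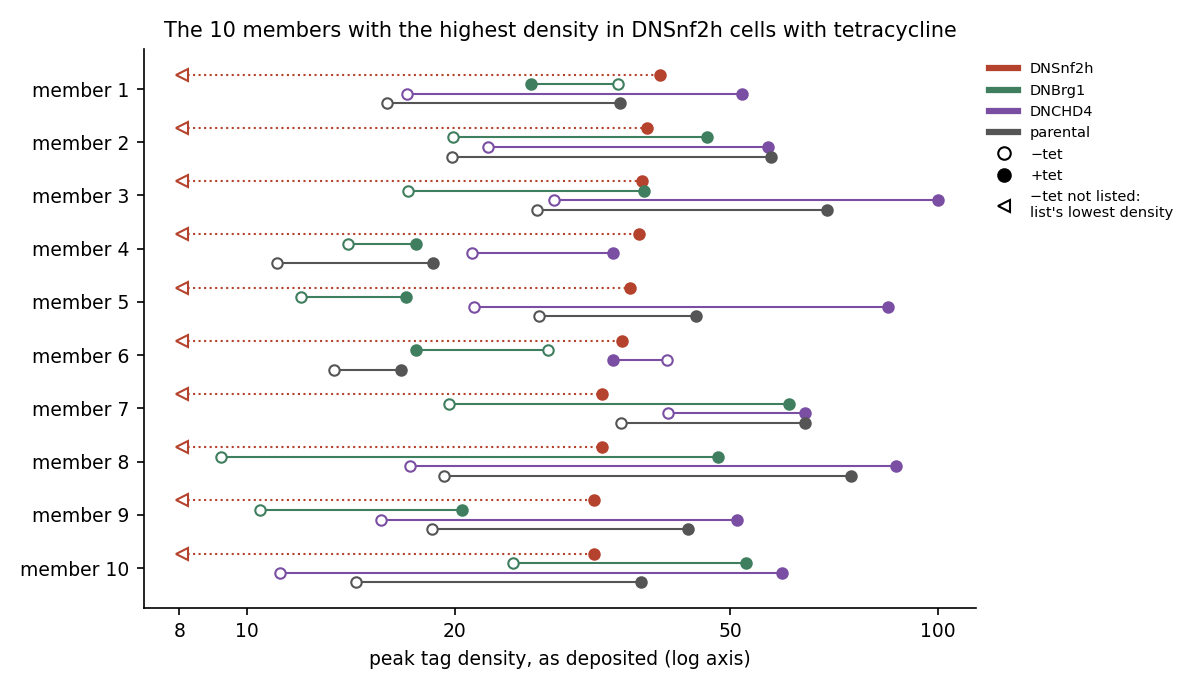
Peak tag density as deposited (log axis) at the 10 members with the highest density in DNSnf2h cells with tetracycline, in rank order from the top. Open circles are libraries without and filled circles libraries with tetracycline, 1 colour per line, and the triangle marks 8.06, the lowest density of the DNSnf2h list without tetracycline, in which no member is listed. DNCHD4 is lower without tetracycline at all of them but the sixth.

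The 5 members strongest in the other lines had densities of 9.90 to 14.4 in DNSnf2h cells with tetracycline. These lay on both sides of the median of 11.4 of all members. By the geometric mean of the 6 other libraries the first lies on chromosome 15 from 81661647 to 81662460. It had 9.90 in DNSnf2h cells with tetracycline, against 98.2 without and 138 with it in DNBrg1 cells, 106 and 87.3 in DNCHD4 cells, and 86.0 and 95.8 in parental cells. The bound was 1.23, with 53 tags at the peak, so a 1.23-fold lower density would have put it under the threshold. On chromosome 7 from 134417264 to 134418034 the values were 14.4 in DNSnf2h cells with tetracycline, 100.3 and 84.4 in DNBrg1 cells, 119 and 91.6 in DNCHD4 cells, and 87.5 and 72.2 in parental cells. This member was higher without tetracycline in each of the 3 other lines, at ratios of 1.19 (0.979 to 1.45), 1.30 (1.15 to 1.46) and 1.21 (1.02 to 1.44). Both members had far lower values in DNSnf2h cells with tetracycline than in the other 6 libraries. They were chosen for high density in those 6, and no member exceeded 39.6 in DNSnf2h cells with tetracycline. The gap was therefore set by the choice, and is not read as particular to these members.

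The greatest differences common to the DNBrg1, DNCHD4 and parental lines were found at members with high and with low bounds. Beside the member on chromosome 9 already described, one on chromosome 16 from 23239533 to 23241539 had 18.3 in DNSnf2h cells with tetracycline. It had 13.5 without and 62.1 with tetracycline in DNBrg1 cells, 32.1 and 88.2 in DNCHD4 cells, and 26.0 and 75.6 in parental cells. Its bound was 2.27, and it was 4.59-fold lower in DNBrg1 (3.27 to 6.51), 2.75-fold in DNCHD4 (2.30 to 3.30) and 2.91-fold in parental cells (2.30 to 3.71). A member on chromosome 3 from 83669041 to 83669745 had 10.5 in DNSnf2h cells with tetracycline, 11.5 without and 40.4 with it in DNBrg1 cells, 11.4 and 38.8 in DNCHD4 cells, and 11.3 and 40.0 in parental cells. The difference was 3.52-fold in DNBrg1 (2.38 to 5.25), 3.42-fold in DNCHD4 (2.55 to 4.65) and 3.53-fold in parental cells (2.49 to 5.09), and its bound was 1.30. At that site the 3 intervals overlapped, parental cells included.

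The changes in the other 3 lines were not used by the rule beyond the requirement that both libraries list the site. As deposited, the median log2 ratio of the members, without over with tetracycline, was -0.79 in DNBrg1 (SD 0.60 across sites), -0.13 in DNCHD4 (SD 0.62) and -0.53 in parental cells (SD 0.44). The median over all sites listed in both libraries of a line was -0.64, 0.03 and -0.40. With those medians set to 0, called centring, the members stood at -0.15, -0.17 and -0.13. The sites listed in all 8 stood at 0.02, -0.07 and 0.04 on that scale. The members were thus lower without tetracycline than the bulk of sites in every line, the parental line included, for which the labels name no dominant-negative protein, and by at most 0.17 on the log2 scale.

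Few members passed a 2-fold difference after centring. At least 2-fold lower were 116 members (8.47%) in DNBrg1, against 6.96% of all sites listed in both libraries, 151 (11.02%) in DNCHD4 against 8.51%, and 34 (2.48%) in parental cells against 1.82%. At least 2-fold higher were 27 members (1.97%) in DNBrg1 against 2.81%, 27 (1.97%) in DNCHD4 against 5.38%, and 15 (1.09%) in parental cells against 2.09%. As deposited the lower members numbered 488 (35.6%) in DNBrg1 against 26.2%, 137 (10.0%) in DNCHD4 against 7.87%, and 184 (13.4%) in parental cells against 8.7%. As deposited 0 members were higher in DNBrg1 and parental cells, against 0.208% and 0.525%, and 31 (2.26%) in DNCHD4 against 5.93%. Lower shares lay above the share of all sites and higher shares under it in each line, on both scales. Some of these differences were within counting error. After centring, the intervals of the lower share in parental cells (1.78 to 3.45) and the higher share in DNBrg1 (1.36 to 2.85) included the share of all sites. So did that of the higher share in DNBrg1 as deposited (0 to 0.280). The interval of the centred lower share in DNBrg1 was 7.11 to 10.1. In DNBrg1 the centred lower share was, however, under that of the sites listed in all 8, which was 9.66%. In DNCHD4 the higher shares were above those of the sites listed in all 8, which were 1.52% centred and 1.68% as deposited.

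Taken over the 3 lines after centring, 453 members (33.1%, 30.6 to 35.6) had a ratio under 0 in every line and 178 (13.0%, 11.3 to 14.9) in none. For the sites listed in all 8 the shares were 24.2% and 24.0%. A 2-fold lower density in DNCHD4 and in neither DNBrg1 nor parental cells was found at 108 members (7.88%), against 4.57% of the sites listed in all 8. In DNBrg1 and in neither of the other lines it was found at 81 members (5.91%), against 6.59%. Among the members the 3 sets of ratios went together weakly, with Spearman correlations of 0.36 between DNBrg1 and DNCHD4, 0.36 between DNBrg1 and parental and 0.37 between DNCHD4 and parental cells. These describe 1370 sites of the same libraries, which are not independent replicates.

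**Figure D4:**
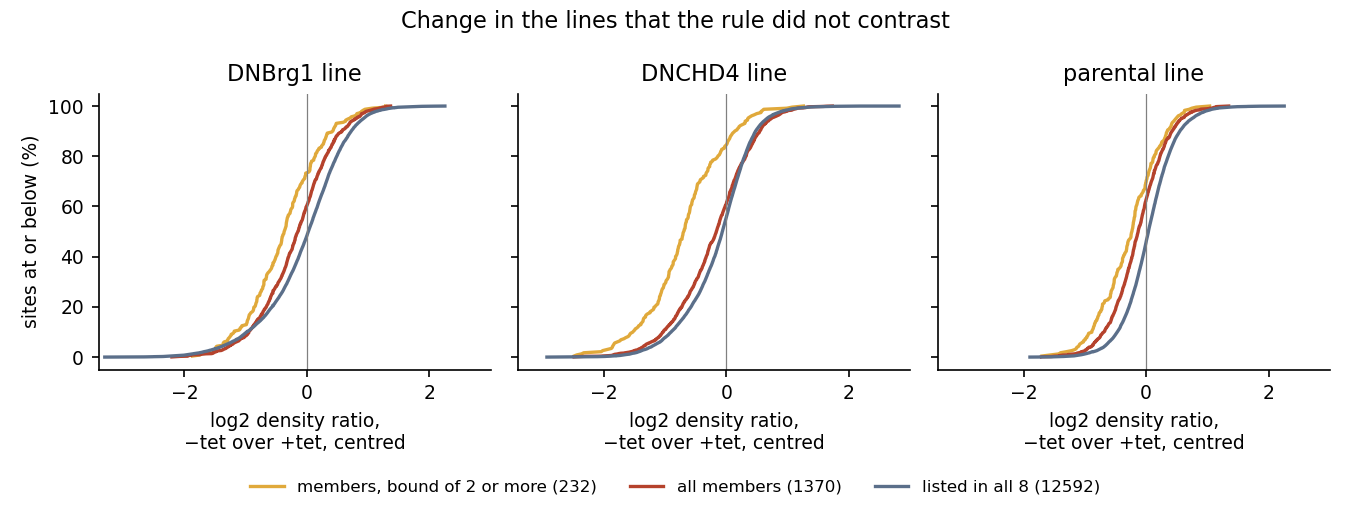
Cumulative share of sites (vertical axis, %) by centred log2 density ratio, without over with tetracycline, in the DNBrg1, DNCHD4 and parental lines. Yellow lines are the 232 members with a bound of 2 or more, red lines all members and blue lines the sites listed in all 8. The yellow line is farthest left in DNCHD4, where its median is -0.69.

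The members with the higher bounds had lower ratios than the other members in all 3 lines, with the lowest median in DNCHD4. At the 232 members with a bound of 2 or more, median density in DNCHD4 was 29.5 without and 48.6 with tetracycline. In DNBrg1 it was 17.7 and 39.0, and in parental cells 24.1 and 38.1. Centred median log2 ratios were -0.69 in DNCHD4, -0.37 in DNBrg1 and -0.23 in parental cells, against -0.10 in each of these lines at the other 1138 members. In DNCHD4 68 of the 232 (29.3%, 23.8 to 35.5) were at least 2-fold lower, against 7.29% (5.92 to 8.95) of the 1138 and 8.51% of all sites listed in both DNCHD4 libraries. Among the sites listed in all 8, the share 2-fold lower in DNCHD4 was 6.90% at 2 to 3 times the lowest density in DNSnf2h cells with tetracycline, 9.51% at 3 to 4 times and 12.9% from 4 times on. In DNBrg1 29 of the 232 (12.5%, 8.85 to 17.4) were at least 2-fold lower, against 7.64% of the 1138. In parental cells 15 (6.47%, 3.96 to 10.4) were, against 1.67%. In the same classes of the sites listed in all 8, the shares were 8.91%, 11.5% and 13.8% in DNBrg1. They were 1.38%, 1.52% and 1.88% in parental cells. The DNBrg1 share of the 232 members thus lay within the range of these classes. Class by class, the DNBrg1 shares of the members were 11.9%, 14.7% and 12.5%, of 194, 34 and 8 members. They were above those of the sites listed in all 8 in the first 2 classes and under it in the last. The 3 lines share no library with each other or with the DNSnf2h line.

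The DNCHD4 ratio went down step by step with density in DNSnf2h cells with tetracycline. Its centred median was 0.05 at the 435 members up to 25% above the lowest density of that list, -0.11 at 351 members from 25% to 50% above it, -0.29 at 348 members from 1.5 to 2 times, -0.65 at 194 members from 2 to 3 times and -0.91 at 34 members from 3 to 4 times. The 8 members from 4 times on had -1.51. At the sites listed in all 8, in the same classes, the median ran from 0.17 down to -0.25. Parental medians at the members ran from -0.07 in the lowest class to -0.60 in the highest. Those of DNBrg1 ran from -0.03 in the lowest class to -0.37 at 2 to 3 times and -0.17 in the highest. The highest class holds 8 sites, so its medians rest on few values; without it the DNCHD4 median still reached -0.91.

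The relation was seen with density in the presence of tetracycline. Across the members the Spearman correlation of density in DNSnf2h cells with tetracycline was 0.38 with DNCHD4 cells with tetracycline and -0.03 with DNCHD4 cells without it. It was 0.11 with DNBrg1 with tetracycline and -0.06 without it, and 0.18 with parental cells with tetracycline and 0.06 without it. With the DNCHD4 log2 ratio it was -0.40, with the DNBrg1 ratio -0.18 and with the parental ratio -0.16. The range of density in DNSnf2h cells with tetracycline is narrow at the members, and the threshold of each list removes low values, so these coefficients describe the members alone. At the sites listed in all 8, where the DNSnf2h ratio is measured, it correlated at 0.56 with the DNCHD4 ratio, 0.28 with the DNBrg1 ratio and 0.23 with the parental ratio.

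**Figure D5:**
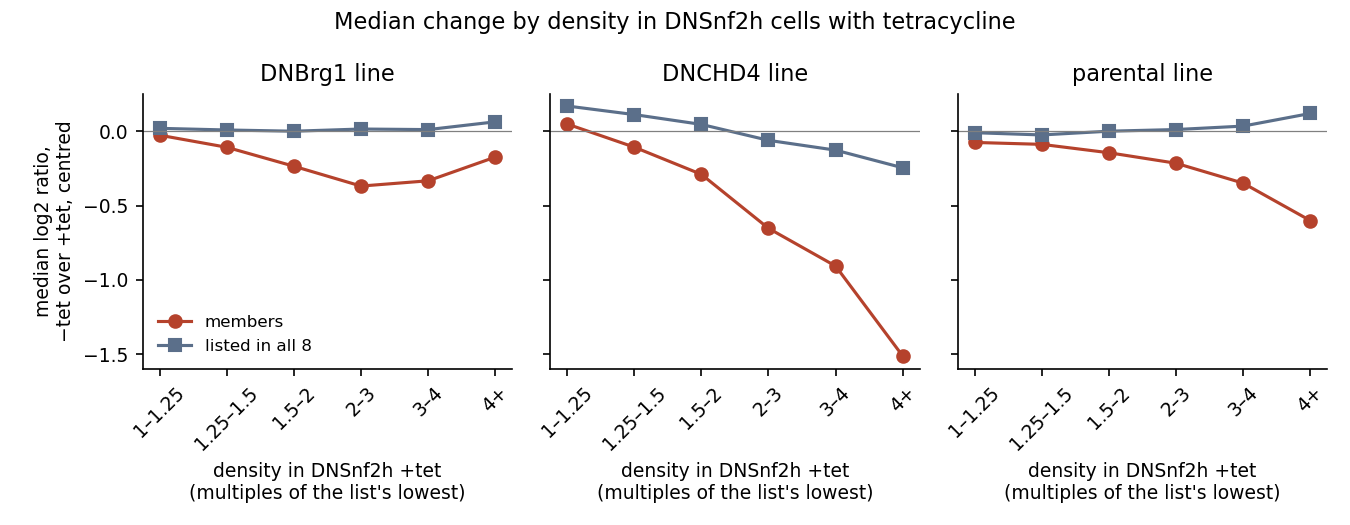
Median centred log2 density ratio, without over with tetracycline, in the DNBrg1, DNCHD4 and parental lines (vertical axis), by density in DNSnf2h cells with tetracycline in multiples of its lowest (horizontal axis). Red circles are the members and blue squares the sites listed in all 8. The DNCHD4 median of the members runs from 0.05 to -1.51, and the highest class holds 8 members.

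The 2043 sites missing from DNSnf2h cells with tetracycline alone had the opposite sign in DNCHD4. Their centred median log2 ratio was 0.28 in DNCHD4, against -0.17 at the members. At least 2-fold higher in DNCHD4 were 152 of them (7.44%) and 14 (0.685%) were lower, against 27 (1.97%) and 151 (11.02%) of the members. In DNBrg1 and parental cells their medians were -0.01 and -0.01, against -0.15 and -0.13 at the members. As deposited, the DNCHD4 medians were 0.31 at these sites and -0.13 at the members, with the same signs.

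The members were narrow. A merged site of the members spanned a median of 786 bp (quartiles 711 and 1006.5), and one listed in all 8 spanned 1052 bp (862 and 1381). In DNSnf2h cells with tetracycline the hotspot at a member was 526 bp wide at the median, against 683 bp at the sites listed in all 8. In parental cells with tetracycline the widths were 676 and 882 bp. Width went with density, and members were narrower at the median in each density class of the parental list with tetracycline: among sites at 2 to 3 times the lowest density of the parental list with tetracycline, the widths were 677.5 bp at 442 members and 699 bp at 1214 sites listed in all 8. From 4 times the lowest density on, they were 740 bp at 247 members and 943 bp at 9393 sites listed in all 8, a class with no upper limit of density. The narrowest member, on chromosome 1 from 181843462 to 181844002, spanned 541 bp, and the widest, on chromosome 15 from 95658425 to 95660893, spanned 2469 bp. Both were weak in DNSnf2h cells with tetracycline, at 10.8 and 11.6. In the class of 2 to 3 times the members had a median of 11.02 in DNSnf2h cells with tetracycline, against 14.6.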

How the data were processed

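DNase-seq was done on 8 libraries, grouped by the source names in the labels. The submitters' processing notes name CASAVA 1.6 and the mm9 build, and no source used here names the hotspot caller. For each hotspot the authors deposited a highest and a mean tag density, a signal scaled within each library to an unstated target, per the file headers. They also hold an enrichment score and a p-value per hotspot, both the authors' own and not used in any result. Total depth is unknown. Peak densities were whole multiples of the value of 1 tag, 0.179 to 0.586, within 0.05 tags for 100% of hotspots.

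Hotspots were merged at an overlap of 1 bp. Each site took its highest peak density in each library, and widths are end minus start plus 1. A difference was called at 2-fold, as deposited and after centring. Intervals are at 95%. The members, bins and rules for named sites were chosen with earlier results of these data known. Named sites are the members with the highest density in DNSnf2h cells with tetracycline (10), the highest in the other lines (5), the greatest common fall (5) and rise (5), those nearest the threshold, and the widest and narrowest. The merging step was tested on simulated data. Sequence, motifs and gene annotation of the sites were not analysed here, since the reference tables are on another build. Calculations used pandas 2.3.3 with numpy 2.4.6 in Python 3.11.15, scipy 1.17.1 for intervals, and matplotlib 3.10.9 for the plots.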

Additional observations from a re-analysis of the deposited data

Results flagged for a closer look

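The 5 members with the greatest rise common to the DNBrg1, DNCHD4 and parental lines had a higher density without tetracycline in each of these lines, as deposited and after centring, while the DNSnf2h line listed the site with tetracycline alone. In all, 29 members (2.12%) as deposited and 178 (13.0%) after centring had a ratio under 1 in none of the 3 lines. Among the sites listed in all 8 the shares were higher, at 5.05% and 24.0%. With 1 library per group the difference between lines was not tested, and the rule fixed the direction in DNSnf2h. On chromosome 5 from 123444304 to 123445000 density was 54.3 without and 37.5 with tetracycline in DNBrg1 cells, 103 and 32.4 in DNCHD4 cells, and 43.3 and 26.7 in parental cells, beside 10.1 in DNSnf2h cells with it. The bound was 1.251. On chromosome 17 from 35775556 to 35776315 the values were 86.0 and 69.7 in DNBrg1 cells, 117.5 and 54.6 in DNCHD4 cells, and 86.2 and 55.5 in parental cells, beside 17.6 in DNSnf2h cells with tetracycline. Its bound was 2.18, the sole one of the 5 above 2, and 10.3 was the lowest of 3 hotspots of the DNSnf2h list without tetracycline within 50 kb. The bounds of the other members were 1.07 on chromosome 17 from 47783444 to 47784120, 1.205 on chromosome 4 from 82156561 to 82157928 and 1.16 on chromosome 18 from 78045361 to 78046065.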

How the results depend on the processing

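Of 62 values recomputed under 11 alternatives, 44 stayed within the interval of the reported value, or within 1.5 times the reported count. The other 18 moved beyond it, and 0 changed sign. Only the log2 ratios could change sign. The rule does not use density, so mean in place of peak density could not move the number or share of members. With the 7 other lists cut at 1.5 times their lowest density, 346 members remained by the rule, 3.54% of their sites, with a median bound of 1.88 and median log2 ratios of -0.58 in parental, -0.93 in DNBrg1 and -0.35 in DNCHD4 cells. That cut removed the members of low density in DNSnf2h cells with tetracycline, so the median bound had to rise. With the DNSnf2h list without tetracycline cut at 25% above its lowest density, the share was 14.4% and the bound 1.13. A raised threshold lets more sites meet the rule and divides each density by a larger number. Centring gave -0.13 in parental and -0.15 in DNBrg1 cells. Mean in place of peak density gave -0.87 in DNBrg1 cells and a median quotient of 14.1, which is not a bound on the peak scale. Leaving out members with a missing hotspot number, or with 2 or more hotspots of 1 library, gave shares of 8.05% and 9.04%. Such sites were left out of the members alone and kept among the sites listed in all 8, so both shares had to fall. Of the sites listed in all 8, 16.4% had 2 or more hotspots of 1 library, against 8.69% of the members. Without the DNBrg1 libraries in the rule, an alternative chosen after seeing the data, there were 3017 members, or 16.6%, with ratios of -0.58 in parental and -0.36 in DNCHD4 cells. The cause of the other moves was not tested. No paired analysis was possible because each group has 1 library and no compared groups share 2 replicates; the lines carry different proteins and are not replicates of each other. The median peak of a member held 61 tags in DNSnf2h cells with tetracycline and 61 in DNBrg1 cells with it, which limits the precision of single sites.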

Other observations

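The members were spread over the genome. On the autosomes they made up 8.30% (chromosome 10, 62 of 747 sites) to 12.8% (chromosome 6, 95 of 742) of the sites listed in the other 7 libraries. On chromosome X they made up 4.79% (14 of 292, 95% interval 2.88 to 7.89), although 26.0% of its sites lay under 1.5 times the lowest density in DNSnf2h cells with tetracycline, a share that ran from 14.3% to 26.5% on the autosomes.

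Members did not lie next to each other more often than next to other sites. Of the members, 10.1% (8.60 to 11.8) were followed along the chromosome by another member among the sites of the 7 lists, against 9.79% (9.28 to 10.3) of the sites listed in all 8. Of 864 windows of 1 Mb with a member, 543 held 1, and the highest number in a window was 7. The window with the highest share among those with 6 or more, picked after its values were seen, lies on chromosome 7 from 108000001 to 109000000, where 7 of 16 sites were members.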
